A study of Mus musculus with 12 samples.

Results

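The genes described here build the structures by which an epithelial cell holds on to the basement membrane and to its neighbours. They are 35 listed genes of hemidesmosomes, integrins, laminins, other basement membrane proteins and desmosomes, each read from the brightest probe set that carries its symbol alone, of 22180 genes with such a probe set. All 35 also passed the filter on low signal that left 20135 genes for testing. Total RNA of sorted prostate epithelium was read on 12 arrays, and the donors were male, wild-type and hormone-naïve mice. Cells negative for the lineage markers CD45, CD31 and Ter119 were sorted by the surface proteins Sca1 and CD49f into a luminal gate (low for both), a Sca1-high gate (positive for CD49f) and a basal gate (intermediate Sca1, positive for CD49f). Each gate was then divided into LY6D+ and LY6D- cells, LY6D being a small surface protein of the Ly6 family, which gave 6 groups of 2 libraries. Luminal libraries came from mice 4 and 5, Sca1-high libraries from mice 1 and 5, and basal libraries from mice 3 and 5. The labels give no age or strain.

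In a stratified or pseudostratified epithelium, the basal cell is fixed to the basement membrane by hemidesmosomes, in which the integrin pair encoded by Itga6 and Itgb4 and the transmembrane collagen XVII bind laminin outside the cell and are tied by plectin and dystonin to keratin filaments inside. Desmosomes join neighbouring cells: desmoglein and desmocollin cadherins cross the gap, and plakoglobin, plakophilins and desmoplakin link them to keratin. In the prostate, basal cells lie on the basement membrane beneath the secretory luminal cells, and CD49f, the protein of Itga6, is a usual sorting marker of basal cells. Because CD49f set the gates here, the Itga6 transcript is not independent of the sort.

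RefSeq promoter sequences (mouse assembly GRCm38.p6) were at hand for 21 of the 35 genes, as the 250 bases before the most upstream start that the RefSeq promoter table lists. That start was the end of the gene's annotated span for 10 of the 21 and lay inside the span for 11, by 130 bases for Itga3. It lay 103707 bases inside for Dst, 7641 for Lamb3 and 2094 for Itgav, so the whole windows of these genes were inside the gene. Those of the only gene that passed the test between basal and luminal cells (Col17a1) and of the 3 with the next smallest p that had an entry (Itgb6, Itga3, Itga2) are shown so that the letters stand beside the expression values that follow. All 4 lie on the minus strand, Col17a1 at chr19:47692043-47692292, Itga2 at chr13:114932101-114932350, Itga3 at chr11:95076715-95076964 and Itgb6 at chr2:60722604-60722853. They are printed 5′ to 3′, and capitals mark the GC box GGGCGG:
Col17a1: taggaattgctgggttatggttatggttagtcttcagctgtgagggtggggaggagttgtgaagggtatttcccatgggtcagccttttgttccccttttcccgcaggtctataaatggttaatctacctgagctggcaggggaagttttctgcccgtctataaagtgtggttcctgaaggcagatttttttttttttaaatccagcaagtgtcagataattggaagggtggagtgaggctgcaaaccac
Itga2: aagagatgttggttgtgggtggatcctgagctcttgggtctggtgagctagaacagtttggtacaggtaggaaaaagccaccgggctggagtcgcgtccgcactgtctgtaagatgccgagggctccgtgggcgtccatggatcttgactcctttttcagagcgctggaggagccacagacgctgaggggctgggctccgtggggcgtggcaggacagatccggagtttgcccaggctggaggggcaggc
Itga3: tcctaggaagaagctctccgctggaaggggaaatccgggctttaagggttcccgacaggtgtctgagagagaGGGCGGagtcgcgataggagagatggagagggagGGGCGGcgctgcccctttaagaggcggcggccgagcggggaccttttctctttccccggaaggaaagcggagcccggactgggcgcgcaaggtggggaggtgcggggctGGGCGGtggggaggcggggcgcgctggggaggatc
Itgb6: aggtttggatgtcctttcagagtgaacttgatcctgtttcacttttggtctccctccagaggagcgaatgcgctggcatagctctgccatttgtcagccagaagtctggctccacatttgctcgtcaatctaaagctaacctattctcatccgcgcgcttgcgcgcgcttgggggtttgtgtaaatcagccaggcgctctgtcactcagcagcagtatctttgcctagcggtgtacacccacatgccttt
The Itga3 window held 3 GC boxes on the printed strand, beginning 178, 144 and 35 bases before the listed start, and the other 3 windows held none. Searched on both strands, the GC box stood in 14 of the 21 promoters (66.7%), against 33.0% of 27025 RefSeq promoters of the same length. The AP-1 motif TGANTCA was in 0 of the 21, against 6.85% of all promoters, and the TEAD motif GGAATG was in 2 of the 21 (9.52%, Itgb1 and Nid1), against 12.6%. None of the 3 motifs contains another, and a match is a description of letters only.

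All values below are log2 signals. Gate values are means ± SD over 4 libraries (n = 4, from 2 mice), differences are log2 ± moderated SE from limma, and adjusted p-values are Benjamini-Hochberg values over 20135 genes at a threshold of 0.05. Libraries of a mouse are not independent, so the errors and p-values of a gate comparison leave out much of the variation from mouse to mouse. The number of arrays limits the precision. A bulk signal cannot tell fewer cells of a type from less RNA per cell. The 3 gate comparisons share libraries with each other.

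Some libraries stood apart. On the first principal component (25.2% of the variance), 3 libraries of mouse 5 lay highest, at 71.5 (basal LY6D+), 73.1 (basal LY6D-) and 32.9 (luminal LY6D-). The rest ran from -46.1 (Sca1-high LY6D- of mouse 1) to 18.5 (basal LY6D+ of mouse 3). The 3 highest are called apart on this component below, but the luminal one was no farther from 0 than some of the rest. The Sca1-high LY6D+ library of mouse 5 had the lowest median correlation with the others (0.807). Its luminal keratins were low, with Krt8 at 6.48 and Krt18 at 5.30, against at least 8.45 and 10.02 in the other 11 libraries. The Ly6d transcript was higher in the LY6D+ than in the LY6D- library in 3 of 6 mouse pairs, and in the Sca1-high cells of mouse 5 it went against the labels, at 4.70 in the library labelled LY6D+ and 7.37 in that labelled LY6D-. The mean of 10 basal epithelial markers ran from 6.75 to 7.89 in basal, 5.79 to 6.91 in Sca1-high and 5.14 to 6.56 in luminal libraries, and that of 8 luminal markers from 7.22 to 8.48, 6.45 to 8.13 and 8.46 to 9.05. Markers of cells the lineage gate should remove were also present. Over 16 endothelial genes the summed linear signal was 314 to 415 in luminal, 1392 to 8720 in Sca1-high and 395 to 3875 in basal libraries. Over 14 myeloid genes it was 2736 to 5521, 537 to 2135 and 350 to 692 in the same order. Over 11 lymphoid genes it was 170 to 1211, 187 to 276 and 174 to 204, and the luminal LY6D- library of mouse 5 held the high end, with Ptprc, which encodes CD45, at 8.90, Cd3e at 7.14 and Gzma at 8.31. That library also had Postn at 8.0 and Acta2 at 8.09, markers of fibroblasts and smooth muscle. In no gate was any endothelial or myeloid gene at or under the lower quartile of all signals (2.98) in every library. That bar was low, since 17608 to 19214 of 22180 genes exceeded it per library, so clearing it does not show that such cells were present. The part of such cells in the results below was not tested.

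Basal cells had a higher gate mean than luminal cells for most of these genes, while 1 of them passed the test. The basal minus luminal difference was above 0 for 29 of the 35 genes, with a median of 0.82, while over all tested genes 45.8% were above 0 and the median was -0.03. Col17a1 was the single gene of the 35 that passed the test, and it rose; over all genes 0.417% passed in either direction and 0.139% were higher. At an unadjusted p under 0.05, 17 of the 35 were higher and 0 lower, beside 4.86% of all genes higher. For 13 of the 35 every basal library lay above every luminal library, beside 2.58% of all genes. These were 4 hemidesmosome genes, 4 other integrin genes, 2 laminin chains and 3 desmosome plaque genes. The counts of 29, 17 and 13 all include Itga6, whose protein set the gates.

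**Figure D1:**
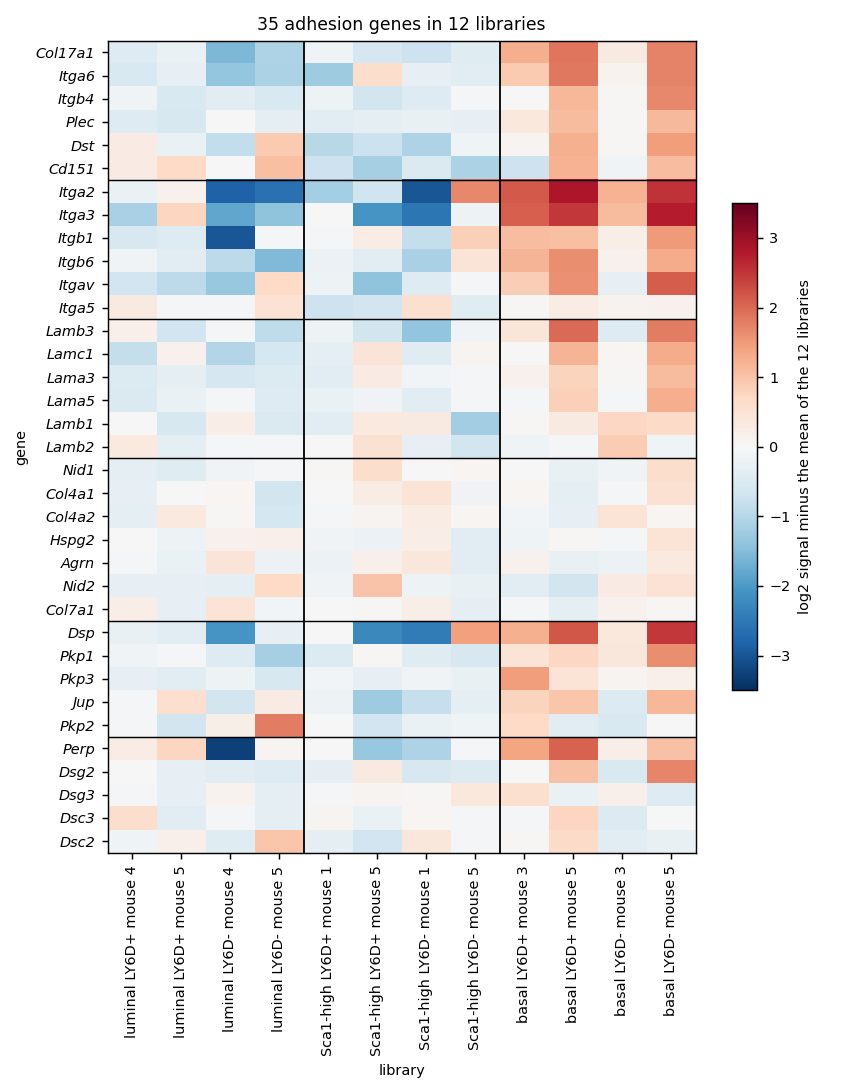
Each row is 1 of the 35 genes and each column 1 of the 12 libraries; colour gives the log2 signal minus the gene's mean over the 12 libraries, black lines separate role groups and gates. The basal columns are mostly red for hemidesmosome, integrin, laminin and plaque genes, and pale for nidogens, collagen IV, perlecan and agrin.

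Among the 6 hemidesmosome genes, Col17a1, which encodes the transmembrane collagen XVII, gave the clearest separation. Its signal was 5.83 and 6.04 in luminal LY6D+ cells (mice 4 and 5), 4.71 and 5.19 in luminal LY6D- cells, 6.15 and 5.68 in Sca1-high LY6D+ cells (mice 1 and 5), 5.57 and 5.86 in Sca1-high LY6D- cells, 7.56 and 8.15 in basal LY6D+ cells (mice 3 and 5), and 6.61 and 8.0 in basal LY6D- cells. The 4 basal libraries lay above all 8 others, whereas luminal and Sca1-high libraries overlapped. The gate means were 5.44 ± 0.61, 5.82 ± 0.25 and 7.58 ± 0.70 (SD, n = 4), and the basal minus luminal difference was 2.14 ± 0.32, a 4.40-fold signal (adjusted p = 0.0322, limma). This call was lost when any 1 of 6 libraries was left out: luminal LY6D+ of mouse 4 (2.09, adjusted p = 0.0845) or of mouse 5 (2.19, 0.0963), luminal LY6D- of mouse 5 (2.26, 0.0631), basal LY6D+ of mouse 3 (2.29, 0.0812) or of mouse 5 (1.99, 0.111), and basal LY6D- of mouse 5 (1.79, 0.0594). It was also lost with each array centred on its median (2.18, adjusted p = 0.0708, limma), with trend and robust moderation (0.0578), and in a fit to the groups compared or without both Sca1-high libraries of mouse 5 (0.0607 each).

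Itga6, the integrin chain whose protein was sorted on, had 6.77, 7.01, 5.97 and 6.20 in the luminal libraries (LY6D+ of mice 4 and 5, then LY6D- of mice 4 and 5). It had 6.07, 7.93, 7.03 and 6.91 in the Sca1-high libraries (mice 1 and 5, same order of classes) and 8.22, 9.15, 7.44 and 9.05 in the basal libraries (mice 3 and 5). All basal libraries lay above all luminal ones, and the Sca1-high LY6D+ library of mouse 5 lay above 1 basal library. The basal minus luminal difference of 1.98 ± 0.46 missed the threshold (adjusted p = 0.150, limma). Sca1-high cells, though sorted as positive for CD49f, had an Itga6 gate mean of 6.98 ± 0.76 against 6.49 ± 0.48 in luminal and 8.47 ± 0.80 in basal cells (SD, n = 4).

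Its partner Itgb4 was 5.33 ± 0.20 in luminal, 5.38 ± 0.25 in Sca1-high and 6.45 ± 0.83 in basal cells, a basal minus luminal difference of 1.13 ± 0.38 (adjusted p = 0.353, limma). The basal libraries lay apart by mouse, with 5.74 and 5.77 in mouse 3 and 6.89 and 7.41 in mouse 5. Plec, the plectin linker to keratin, showed the same layout, with 5.89 and 5.57 in basal cells of mouse 3, 6.62 and 6.65 in those of mouse 5, and 4.96 to 5.49 in luminal cells (difference 1.01 ± 0.27, adjusted p = 0.209). For both genes all basal libraries lay above all luminal ones.

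The other 2 hemidesmosome genes overlapped between basal and luminal cells. Dst, which encodes dystonin, the other keratin linker, was 6.37, 5.84, 5.22 and 6.99 in the luminal libraries, 5.10, 5.32, 5.01 and 5.93 in the Sca1-high libraries and 6.19, 7.32, 6.13 and 7.55 in the basal libraries. Its basal minus luminal difference was 0.69 ± 0.48 (adjusted p = 0.787, limma). Cd151, a tetraspanin that associates with laminin-binding integrins, was 6.37, 6.77, 6.07 and 7.12 in luminal, 5.35, 4.93, 5.58 and 4.97 in Sca1-high and 5.35, 7.29, 5.95 and 7.15 in basal libraries. Its basal minus luminal difference was -0.15, with no settled sign: it was 0.27 within mouse 5 and 0.34 without the basal LY6D+ library of mouse 3.

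**Figure D2:**
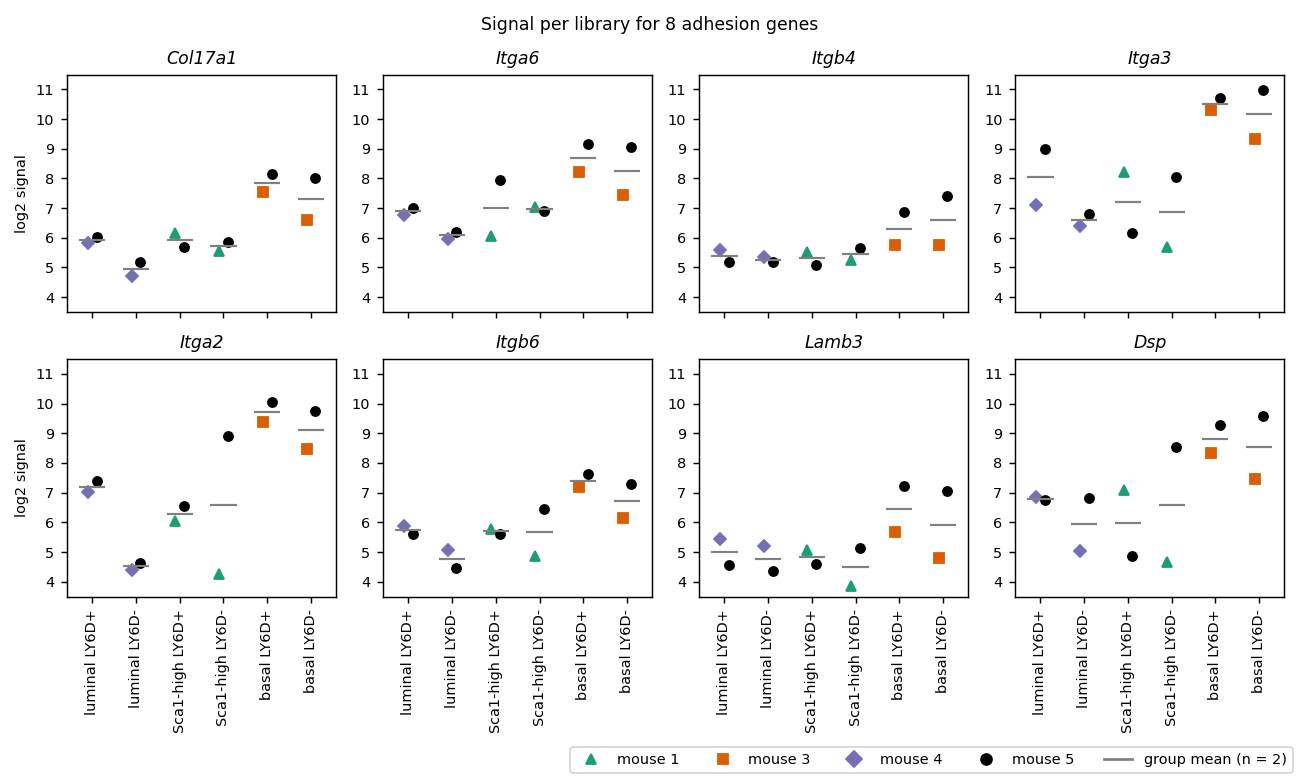
Log2 signal (vertical axis) of 8 genes in each library, by group (horizontal axis), with symbols for the mouse and a grey bar at the group mean of 2 libraries. Basal libraries stand above the luminal ones for Col17a1, Itga6, Itgb4, Itga3, Itga2, Itgb6 and Dsp, while the mouse 3 basal libraries of Lamb3 lie in or near the luminal range.

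The largest basal minus luminal differences belonged to integrin chains outside the hemidesmosome. Itga2, the chain that pairs with Itgb1 to bind collagen, was 7.01 and 7.40 in luminal LY6D+ cells and 4.41 and 4.63 in luminal LY6D- cells. It was 6.05 and 6.55 in Sca1-high LY6D+ cells, 4.26 and 8.91 in Sca1-high LY6D- cells, 9.37 and 10.06 in basal LY6D+ cells and 8.46 and 9.75 in basal LY6D- cells. All 4 basal libraries lay above the luminal ones, but the Sca1-high LY6D- library of mouse 5 lay above 1 basal library, and the 2 Sca1-high LY6D- libraries stood at opposite ends. The basal minus luminal difference was 3.55 ± 0.82, an 11.7-fold signal, and missed the threshold (adjusted p = 0.145, limma). It passed, at the same size, in the fit to the groups compared, in which Col17a1 did not (adjusted p = 0.00817), or with the Sca1-high LY6D- library of mouse 1 or that of mouse 5 left out (0.00666 each), settings that take the spread of that pair out of the error.

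Itga3, the chain of a laminin-binding pair with Itgb1, was 7.11, 8.99, 6.41 and 6.81 in luminal, 8.23, 6.17, 5.70 and 8.05 in Sca1-high and 10.32, 10.71, 9.33 and 10.98 in basal libraries. All 4 basal libraries lay above all 8 others. The difference from luminal cells was 3.00 ± 0.68, an 8.02-fold signal (adjusted p = 0.134, limma). Itgb6, a partner of Itgav known from epithelia as an activator of latent TGF-beta, had gate means of 5.25 ± 0.63, 5.68 ± 0.65 and 7.06 ± 0.64 (luminal, Sca1-high and basal; SD, n = 4), a difference of 1.81 ± 0.38 (adjusted p = 0.0967).

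Itgb1, the common beta chain, was 8.60, 8.70, 6.16 and 9.08 in luminal, 9.10, 9.41, 8.32 and 9.996 in Sca1-high and 10.22, 10.19, 9.38 and 10.64 in basal libraries. The gate means stepped from 8.14 ± 1.33 through 9.21 ± 0.70 to 10.11 ± 0.53, and the libraries of neighbouring gates overlapped. The basal minus luminal difference was 1.97 ± 0.61 (adjusted p = 0.294, limma), and 1.24 without the luminal LY6D- library of mouse 4, the lowest of the 12. Itgav, an alpha chain of receptors for RGD-bearing ligands, was 6.96 ± 0.87 in luminal, 6.99 ± 0.61 in Sca1-high and 8.59 ± 1.04 in basal cells (difference 1.63 ± 0.59, adjusted p = 0.390). Itga5, the chain of the fibronectin receptor, stood out from the other 5, with a basal minus luminal difference of -0.03 that turned to 0.01 with arrays centred.

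Laminins are alpha, beta and gamma chain proteins of the basement membrane. The 6 laminin chains among the listed genes had basal minus luminal differences above 0, with a median of 0.91. None was called (adjusted p from 0.228, limma). Other laminin chains (Lama1, Lama2, Lama4 and Lamc3) belong to a further list given below, and not all genes of that list were above 0. Lama3 and Lamb3 encode chains of the laminin that hemidesmosomes bind. Lamb3 had the largest laminin difference (1.30 ± 0.56, adjusted p = 0.505), from 5.44, 4.58, 5.20 and 4.35 in luminal, 5.08, 4.61, 3.87 and 5.14 in Sca1-high and 5.69, 7.23, 4.80 and 7.04 in basal libraries. The 2 basal libraries of mouse 5 stood high, and those of mouse 3 lay in or near the luminal range. Lama3 was 4.13 to 4.40 in luminal and 4.78 to 5.83 in basal libraries, without overlap (difference 1.00 ± 0.27, adjusted p = 0.228). Lama5, an alpha chain found in most mature epithelial basement membranes, was also without overlap (4.48 to 4.91 against 4.94 to 6.25). Lamc1, the common gamma chain, differed by 1.22 ± 0.40 (adjusted p = 0.325), Lamb1 by 0.66 ± 0.35 and Lamb2 by 0.16.

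The remaining basement membrane genes varied little between gates. They were the nidogens Nid1 and Nid2, which bridge laminin and collagen networks, the collagen IV chains Col4a1 and Col4a2, the anchoring fibril collagen Col7a1, and the proteoglycans perlecan (Hspg2) and agrin (Agrn). No pairwise gate difference among these 7 was larger than 0.42 in either direction, and the median basal minus luminal difference was 0.05. Some were dim, with Nid2 at 3.65 to 5.30 and Agrn at 3.89 to 4.75, against a median of 3.90 over all signals. A small difference at such signals does not show equal expression. For Nid1, with the largest basal minus luminal difference of the 7, signals were 4.83, 4.75, 5.04 and 5.12 in luminal, 5.22, 5.80, 5.16 and 5.23 in Sca1-high and 5.19, 4.90, 5.06 and 5.77 in basal libraries, and the basal and luminal ranges overlapped (0.30 ± 0.22, adjusted p = 0.807, limma). That sign rests on the probe set used, since the mean of the gene's probe sets gave -0.89. The differences of Hspg2 and Nid2 changed sign with the scaling and were within 0.10 of 0.

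In the desmosome plaque, the cytoplasmic side of the junction, 4 of 5 genes had basal minus luminal differences above 0, with a median of 0.91 and no call. Dsp, which encodes desmoplakin, the anchor of keratin filaments, was 6.85, 6.75, 5.05 and 6.83 in luminal, 7.08, 4.85, 4.65 and 8.54 in Sca1-high and 8.35, 9.27, 7.47 and 9.59 in basal libraries. Basal and luminal libraries did not overlap (difference 2.30 ± 0.89, adjusted p = 0.438, limma). The Sca1-high libraries ran from below the luminal ones into the basal range, and both basal libraries of mouse 5 lay above all of them. Pkp1 and Pkp3, plakophilins of stratified epithelia, were without overlap as well, with differences of 1.25 ± 0.29 (adjusted p = 0.153) and 0.91 ± 0.23 (adjusted p = 0.188). Jup, encoding plakoglobin, which also serves adherens junctions, was 6.03, 6.69, 5.45 and 6.40 in luminal, 5.92, 4.85, 5.29 and 5.76 in Sca1-high and 6.87, 7.08, 5.62 and 7.26 in basal libraries, and the basal LY6D- library of mouse 3 fell within the luminal range. Pkp2, the plakophilin of simple epithelia and heart, had a difference of -0.38 ± 0.39, with the luminal LY6D- library of mouse 5 at 6.20 and the other 11 libraries between 3.73 and 5.11; without that library the difference was 0.02.

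The desmosome membrane genes split. Perp, a tetraspan desmosome protein and a p63 target in stratified epithelia, was 6.88, 7.39, 3.36 and 6.72 in luminal, 6.62, 5.30, 5.55 and 6.56 in Sca1-high and 8.02, 8.71, 6.88 and 7.65 in basal libraries. The basal minus luminal difference of 1.73 ± 0.66 (adjusted p = 0.430, limma) was 0.89 without the luminal LY6D- library of mouse 4, the lowest of all. The cadherins Dsc2, Dsc3 and Dsg3 had differences between -0.13 and 0.16. Dsc3 and Dsg3 were dim, at or under the lower quartile of all signals in 10 and 4 of the 12 libraries. Dsg2, a desmoglein also of simple epithelia, was 5.46 and 6.15 in basal cells of mouse 5, 4.46 and 3.91 in basal cells of mouse 3 and 4.00 to 4.45 in luminal cells.

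**Figure D3:**
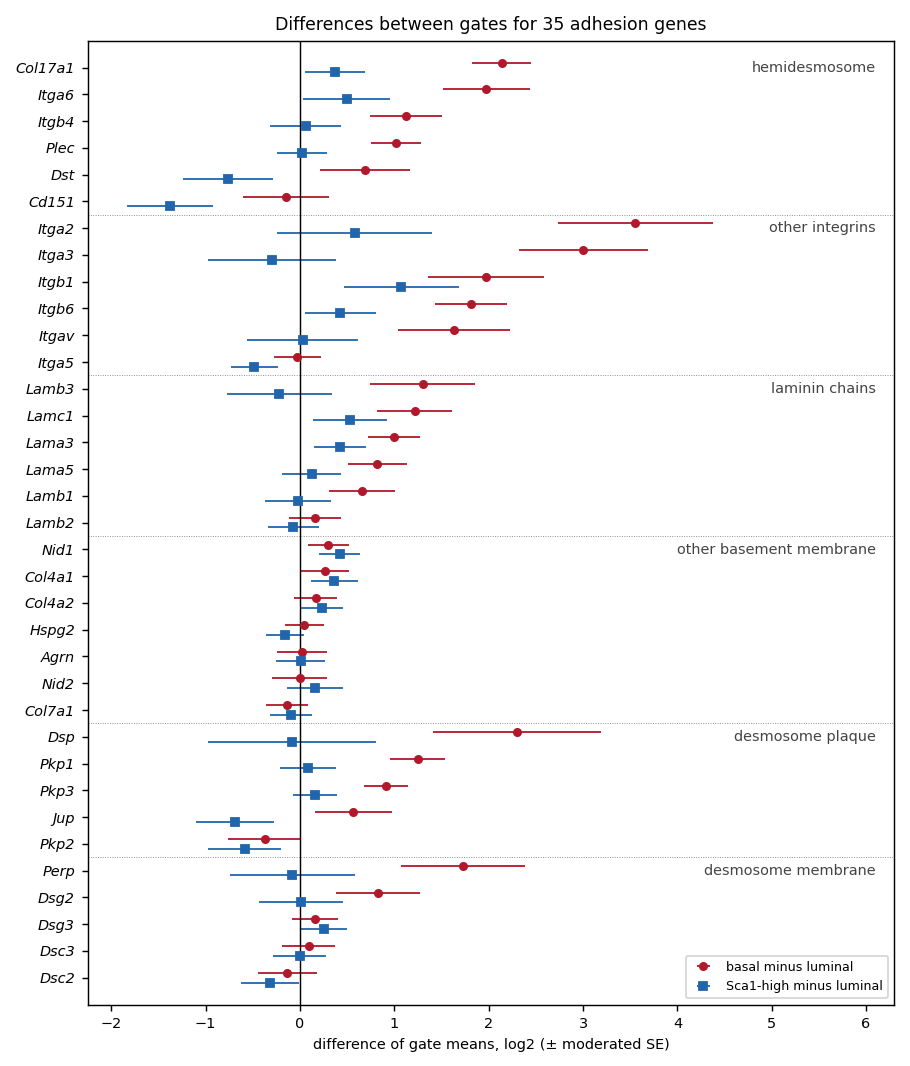
Differences of gate means in log2 (horizontal axis) for the 35 genes (vertical axis, grouped by role), with bars of 1 moderated SE; red circles are basal minus luminal and blue squares Sca1-high minus luminal. Red circles lie right of 0 for 29 genes and reach 3.55 at Itga2; blue squares lie between -1.38 at Cd151 and 1.07 at Itgb1.

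Mouse 5 gave both luminal and basal cells, so the comparison could be set out within that animal and, apart, between mouse 3 (basal) and mouse 4 (luminal). Both values were above 1 for 9 of the 35 genes. For Itga3 the differences were 2.94 within mouse 5 and 3.06 between the other mice, for Itga2 3.89 and 3.21, for Col17a1 2.47 and 1.81, for Dsp 2.64 and 1.96, and for Itgb1 1.53 and 2.42. A second set was large within mouse 5 and small between the other mice. For Lamb3 the values were 2.67 and -0.076, for Itgb4 1.97 and 0.28, for Dsg2 1.73 and -0.075, for Plec 1.57 and 0.46 and for Lama5 1.39 and 0.24. Over the 35 genes the difference was larger within mouse 5 for 25. The counts of 9 and 25 were not taken over all tested genes, so they cannot be read as particular to these 35. The difference between mouse 5 and the other mice was not tested. The 3 mouse 5 libraries apart on the first component include both basal ones. Without these 3 the median of the 35 genes was 0.40, with Col17a1 at 1.76, Itga3 at 2.59 and Itga2 at 3.11. Lamb3 was then at 0.14, Itgb4 at 0.39, Plec at 0.48 and Dsg2 at 0.00. No gene of the whole table passed in that fit, so it says nothing about stability of calls.

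**Figure D4:**
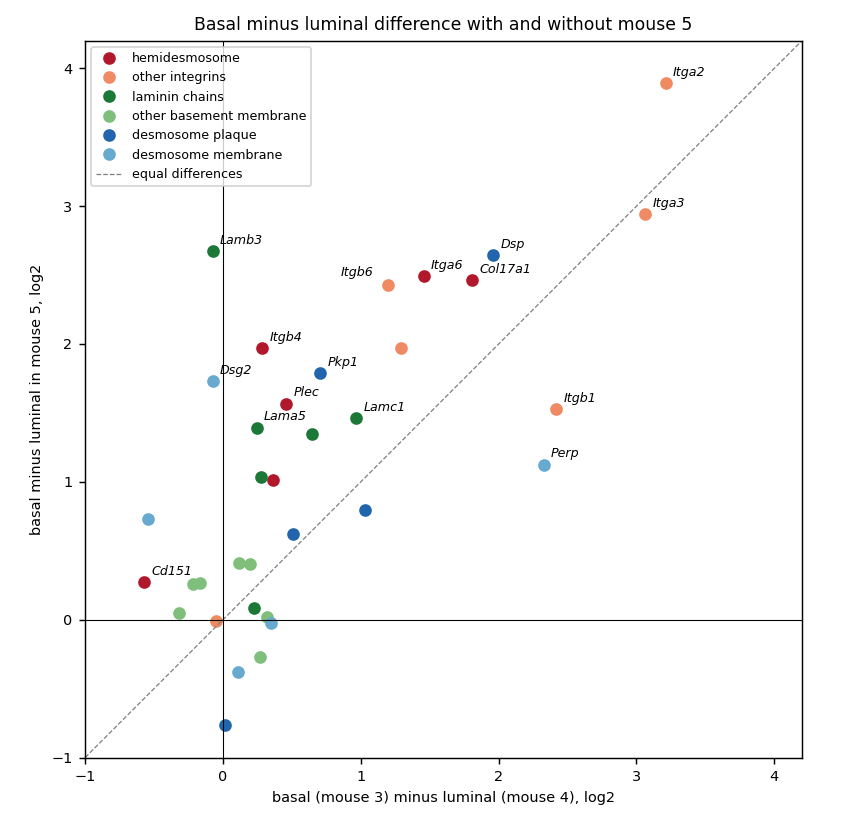
Basal minus luminal difference in log2 within mouse 5 (vertical axis) against that between mouse 3 basal and mouse 4 luminal cells (horizontal axis), 1 point per gene, coloured by role; the dashed line marks equal values. Itga2, Itga3, Dsp, Col17a1 and Itga6 lie far from 0 on both axes, and Lamb3, Dsg2 and Itgb4 lie high on the vertical axis and near 0 on the horizontal one.

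Basal and luminal cells were also compared within each LY6D class. Among LY6D+ cells 0 of the 35 genes passed (0.0298% of all genes did, limma), and at an unadjusted p under 0.05 there were 8, beside 5.65% of all genes. Among LY6D- cells 0 passed as well (0.0596% of all genes did), and at an unadjusted p under 0.05 there were 11 higher and 1 lower, beside 6.88% of all genes. Col17a1 differed by 1.92 ± 0.45 in LY6D+ (adjusted p = 0.320, limma) and by 2.36 ± 0.45 in LY6D- cells (adjusted p = 0.151), and Itga3 by 2.46 ± 0.96 (0.804) and 3.54 ± 0.96 (0.368). The difference was above 0 for 30 of the 35 genes in LY6D+ cells (46.1% of all genes) and for 27 in LY6D- cells (47.8%).

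Sca1-high cells, which share CD49f positivity with basal cells, had levels of these genes near those of luminal cells. Between Sca1-high and luminal cells 20 of the 35 differences were above 0 and 15 below, beside 59.8% of all genes above 0. With arrays centred 15 of the 35 were above 0. The median was 0.02 (0.07 over all genes), and 0 genes passed, beside 0.139% of all genes (limma). At an unadjusted p under 0.05 there was 1 gene, which was lower, beside 8.41% of all genes. That gene was Cd151, at 5.21 ± 0.31 in Sca1-high against 6.58 ± 0.46 in luminal cells, a difference of -1.38 ± 0.46 (adjusted p = 0.447) with no overlap between libraries. Nid1, higher in Sca1-high cells by 0.42 ± 0.22 (adjusted p = 0.655), was the other gene without overlap; 6.04% of all genes had none. The next largest differences were those of Itgb1 (1.07 ± 0.61, and 0.34 without the luminal LY6D- library of mouse 4), Dst (-0.77 ± 0.48) and Jup (-0.69 ± 0.41), none past the threshold (adjusted p = 0.675 to 0.698).

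Against basal cells, 29 of the 35 genes were lower in the Sca1-high gate and 6 higher, beside 64.2% of all genes higher, with a median of -0.75, while the median over all genes was 0.11. Centring the arrays moved that all-gene median to -0.02 and left 34 of the 35 below 0. None of the 35 passed, beside 0.00993% of all genes, and 16 were lower at an unadjusted p under 0.05, beside 5.32% of all genes lower (limma). With the mouse as a block 80 genes of the table passed in place of 2, and still 0 of these 35. The largest differences were in Itga3 (-3.30 ± 0.68, adjusted p = 0.200), Itga2 (-2.97 ± 0.82, 0.348), Dsp (-2.39 ± 0.89, 0.460) and Perp (-1.81 ± 0.66, 0.454). For 9 genes, Itga3, Perp, Col17a1, Dst, Pkp1, Itgb4, Plec, Pkp3 and Lama5, all Sca1-high libraries lay below all basal ones, beside 2.26% of all genes. Single libraries moved these values. Without the Sca1-high LY6D- library of mouse 5, Itga2 passed (-4.14, adjusted p = 0.0128, limma), and without that of mouse 1 Itga2 was at -1.81 and Dsp at -1.42. Without the basal LY6D- library of mouse 3, Col17a1 (-2.11, adjusted p = 0.0195) and Pkp1 (-1.47, 0.0478) passed.

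For some of these genes the 4 Sca1-high libraries did not form one level. Itga3 was 8.23 and 8.05 in LY6D+ cells of mouse 1 and LY6D- cells of mouse 5, against 6.17 and 5.70 in the other two. Dsp was 7.08 and 8.54 in the same first pair, against 4.85 and 4.65, and Perp was 6.62 and 6.56, against 5.30 and 5.55. The mean of the 16 endothelial markers ran the other way, at 5.56 and 5.78 in the first pair and 7.25 and 6.95 in the second, and that of the 10 basal markers was 6.91 and 6.81, against 5.79 and 5.98. Not every listed gene shared the layout of Itga3, Dsp and Perp. Itga6 was 6.07 and 6.91 in the first pair against 7.93 and 7.03 in the second, and Lamb1 5.17 and 4.32 against 5.88 and 5.86. Col17a1 lay closer together, at 6.15 and 5.86 against 5.68 and 5.57. The layout was noticed after the values were seen, and the part of other cells in it was not tested. In basal cells the endothelial mean was 6.58 and 6.54 in the LY6D- libraries, where Itga3 was 9.33 and 10.98, Dsp 7.47 and 9.59 and Perp 6.88 and 7.65. It was 4.23 and 4.44 in the LY6D+ libraries, where Itga3 was 10.32 and 10.71, Dsp 8.35 and 9.27 and Perp 8.02 and 8.71.

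Within gates, LY6D+ and LY6D- cells differed in none of the 35 genes by the test. No gene of the 35 passed in luminal cells (0% of all genes did), Sca1-high cells (0%), basal cells (0.00993%) or over the 3 gates together (0%), with adjusted p at 1.00 for each gene named next (limma). At an unadjusted p under 0.05 there were 2 of the 35 in luminal, 0 in Sca1-high, 1 in basal cells and 1 over the gates, beside 3.56%, 2.41%, 2.20% and 2.62% of all genes. The luminal genes were Itga2, higher in LY6D+ cells, and Pkp2, lower in them (-1.34 ± 0.55). The basal gene was Pkp3 (0.84 ± 0.33) and the gene over the gates Col17a1 (0.58 ± 0.26), both higher in LY6D+ cells. The genes with the largest differences, given next, are not all among these. In luminal cells the largest differences were higher signals in LY6D+ cells for Itga2 (2.68 ± 1.16) and Perp (2.10 ± 0.93). Itga2 was 7.01 and 7.40 in LY6D+ against 4.41 and 4.63 in LY6D- luminal libraries, without overlap and alike in both mice. Basal keratins stood the same way in these libraries: Krt14 was 9.87 and 10.31 in LY6D+ against 4.98 and 6.99 in LY6D- cells, Krt15 9.18 and 9.72 against 5.89 and 6.41, and Krt17 10.48 and 11.18 against 6.56 and 7.86. Of the 10 basal epithelial markers, 9 were above 0 in this comparison, beside 10483 of all 20135 genes, and 0 passed. Their median difference was 0.39, with a range from -0.07 to 4.11, so the keratins shown were not typical of the list. The part of these markers in the Itga2 and Perp values was not tested. The Perp difference was 0.42 without the LY6D- library of mouse 4. In Sca1-high cells the largest were Itga5 (-0.77 ± 0.35; 5.24 and 5.29 in LY6D+, 6.53 and 5.54 in LY6D- cells) and Lamb2 (0.73 ± 0.39; 4.61 and 5.15 against 4.32 and 3.97). In basal cells they were Perp (1.10 ± 0.93) and Nid2 (-0.91 ± 0.42; 3.90 and 3.65 against 4.59 and 4.79). In the other gates, Lamb2 was 4.95, 4.28, 4.54 and 4.56 in luminal and 4.45, 4.56, 5.49 and 4.45 in basal libraries, and Nid2 was 3.99, 4.00, 3.97 and 4.99 in luminal and 4.18, 5.30, 4.10 and 4.02 in Sca1-high libraries. Itga5 was 6.29, 5.89, 5.90 and 6.46 in luminal and 5.999, 6.23, 6.09 and 6.104 in basal libraries.

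Counted by mouse pair, 7 of the 35 genes were higher in the LY6D+ library in at least 5 of 6 pairs (10.6% of all genes were), and 4 were lower in at least 5 (10.3%). None of the 35 went one way in all 6. The 7 were Itga2, Perp, Col17a1, Itgb6, Itga6, Lamb3 and Dsg2, and the 4 were Hspg2, Col7a1, Plec and Lamb1. For Itga2, Perp, Col17a1 and Itgb6 the exception was the Sca1-high pair of mouse 5. Ly6d went against the labels in that pair and also in luminal mouse 4 and basal mouse 5, in which these 4 genes were higher in the LY6D+ library. Over the gates the LY6D+ minus LY6D- difference of Itga2 was 1.00 ± 0.67, and 1.69 ± 0.31 without both libraries of that pair. For Perp it was 1.03 ± 0.54 and 1.42 ± 0.64, for Col17a1 0.58 ± 0.26 and 0.71 ± 0.32, and for Itgb6 0.56 ± 0.31 and 0.86 ± 0.29. Because that pair was the exception for genes picked by their pairs, the larger values without it follow from the choice. With 1 library left out, the value fell to 0.23 for Itga2 (without Sca1-high LY6D- of mouse 1) and to 0.47 for Perp (without luminal LY6D- of mouse 4). The difference in LY6D effect between gates was itself tested, and 0 of the 35 passed in any of the 3 comparisons (0% of all genes did, limma). At an unadjusted p under 0.05 there was 1 of the 35 between basal and luminal cells (2.45% of all genes), 0 between Sca1-high and luminal cells (2.92%) and 1 between Sca1-high and basal cells (2.36%).

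**Figure D5:**
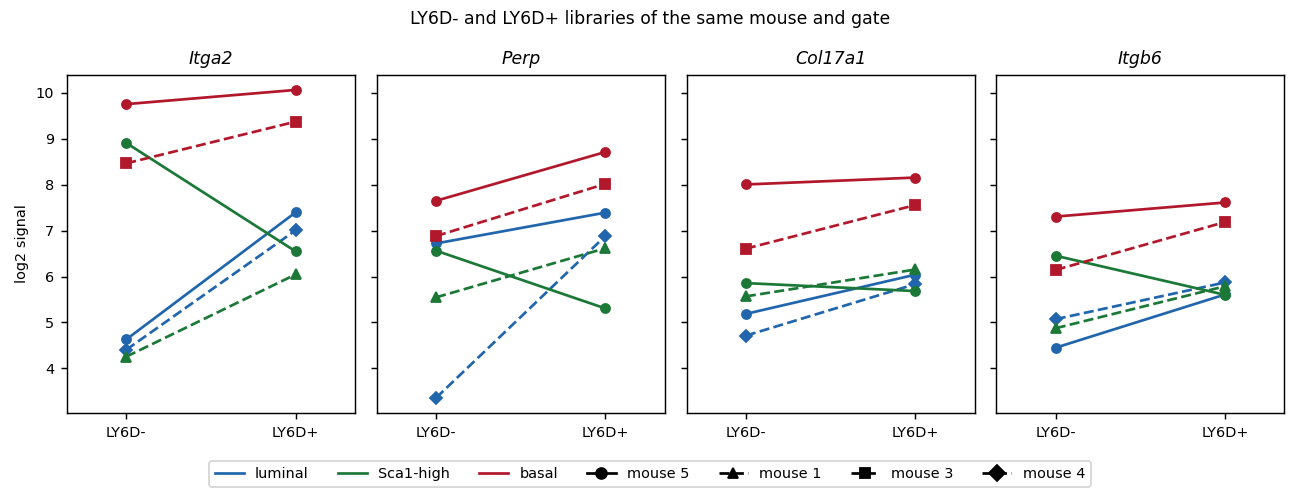
Log2 signal (vertical axis) of Itga2, Perp, Col17a1 and Itgb6 in the LY6D- and LY6D+ libraries of the same mouse and gate, joined by lines coloured by gate with symbols for the mouse. The lines rise in 5 of 6 pairs for each gene, and the green line of mouse 5, Sca1-high cells, runs downward.

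Other genes of the same systems were taken from 5 lists. Over these lists 0 genes passed the test in basal against luminal cells (limma), and at an unadjusted p under 0.05 the lists held, in the order below, 0, 1, 1, 2 and 6 higher and 1, 1, 0, 0 and 0 lower genes. Over all tested genes 4.86% were higher and 4.58% lower by that measure, and 45.8% had a difference above 0. Of 10 other integrin chains tested, 2 were above 0, with a median of -0.11; Itgb8, another partner of Itgav, was 6.01 ± 1.11 in luminal and 4.61 ± 0.37 in basal cells (-1.41 ± 0.29, adjusted p = 0.0906), and Itgb5 differed by -0.30 ± 0.33. A list of 15 held other laminin chains, basement membrane collagen chains and the matrix genes Fras1, Frem1, Frem2, Sparc and Fbln1. Of these 15, 6 were above 0 (median -0.11), with Lama4 at 0.75 ± 0.71 and Col18a1 at 0.68 ± 0.26. Of 8 other desmosome and plaque genes, 4 were above 0 (median -0.01), and Ppl, the plakin periplakin, was 5.30 in luminal, 5.85 in Sca1-high and 7.27 in basal cells on average (1.98 ± 0.44, adjusted p = 0.126), while Dsg1c differed by -0.37 ± 0.31. All 7 genes of a list of other matrix receptors (Dag1, Bcam, Cd44, Sdc1, Sdc4, Ddr1 and Rpsa) were above 0 (median 0.82). The largest differences were in the proteoglycan Sdc1 (2.91 ± 0.79, adjusted p = 0.224, limma) and the Lutheran glycoprotein Bcam (1.58 ± 0.58, adjusted p = 0.394). Of 13 integrin adaptors tested, 10 were above 0 (median 0.81), led by the tensin Tns4 (2.46 ± 0.64, adjusted p = 0.203) and the kindlin Fermt1 (2.07 ± 0.67, adjusted p = 0.320).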

How the data were processed

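The deposited table holds log2 signals by probe set. RMA and oligo appear in the submitters' processing notes, with no version or parameters. Per the labels' protocols, RNA was amplified with the NuGEN Ovation system before hybridization. All 41345 probe sets lay between 0.695 and 14.3, with array medians from 3.76 to 3.99, so the values were taken as log2 without further normalization; scanner files were not used here. Genes were read from the brightest of their single-symbol probe sets and kept when at least 2 arrays exceeded the lower quartile (2.98). limma 3.58.1 in R 4.3.3 fitted a mean per group, with default moderation and Benjamini-Hochberg adjustment at 0.05. The fit was tried on simulated libraries drawn without a mouse effect, which cannot show how shared mice affect the p-values. Gate means average both LY6D classes. Mouse number pairs LY6D+ and LY6D- libraries of a gate, per the labels; their deviations correlated at 0.0220 (luminal), 0.149 (Sca1-high) and 0.407 (basal). Mouse as a fixed and as a random block, other scalings, filters and probe set rules, trend and robust moderation, and left-out libraries were alternatives. Motifs were searched in promoters of 250 bases.

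The genes, lists, tests and markers were chosen with earlier results of these data known. Values in every library are given for genes called in any comparison, for Itga6, for the 4 largest differences of each gate comparison, the 2 largest of each LY6D comparison and the largest of each role group; from the other lists, the 2 largest basal minus luminal differences are named.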

Additional observations from a re-analysis of the deposited data

Results flagged for a closer look

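In 7 of 105 sets of 4 libraries of a gate (35 genes in 3 gates), 1 library lay far from the other 3 by Dixon's criterion; chance gives about 1 in 20. In luminal cells, the LY6D- library of mouse 4 was low for Itgb1 (6.16, others 8.60 to 9.08), Dsp (5.05, others 6.75 to 6.85) and Perp (3.36, others 6.72 to 7.39). The luminal LY6D- library of mouse 5 was high for Nid2 (4.99, others 3.97 to 4.00). The Sca1-high LY6D+ library of mouse 5 was high for Nid1 (5.80, others 5.16 to 5.23) and Nid2 (5.30, others 4.02 to 4.18). In basal cells, the LY6D- library of mouse 3 was high for Lamb2 (5.49, others 4.45 to 4.56).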

How the results depend on the processing

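The 35 genes were recounted under 25 alternatives, 12 of which left out 1 library. Of 284 recounts over 12 comparisons, 263 kept the count. The basal minus luminal count of 1 became 0 with arrays centred, with trend and robust moderation, without the 3 mouse 5 libraries apart on the first component, with mouse 5 alone and with mice 1, 3 and 4 alone; leaving out 1 library gave 0 to 2, with Pkp1 joining Col17a1 without basal LY6D- of mouse 3 and Itga2 joining without either Sca1-high LY6D- library. The count stayed at 1 without both Sca1-high libraries of mouse 5 and in the fit to the groups compared, but with Itga2 in place of Col17a1. The Sca1-high minus basal count of 0 became 1 without both Sca1-high libraries of mouse 5 and ran from 0 to 2 with 1 library left out. Within LY6D- cells, the count of 0 became 1 with quantile normalization, likewise when both Sca1-high libraries of mouse 5 were left out, and ran from 0 to 1 with 1 library left out. With the replicate block for mouse, the paired analysis kept the basal minus luminal count at 1 and changed no other call among the 35 genes. Of 588 recomputed differences of 24 named results, which include neither Cd151 nor Pkp2 for basal minus luminal, 567 stayed on their side of the threshold, 13 lost a call and 6 gained one. The sign turned for Lamb3 with mice 1, 3 and 4 alone (-0.076) and for Nid1 with the mean of its probe sets (-0.89); the cause was not tested. Over all genes the basal minus luminal calls numbered 84, 31 with arrays centred, 3 with mouse 5 alone, 2 with mice 1, 3 and 4 alone, 0 without the 3 libraries and 15 to 255 with 1 library left out. With the mouse as a block they numbered 104 in place of 28 for Sca1-high minus luminal.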

Other observations

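A few of these genes had further probe sets, which the comparisons do not use. A second Nid1 probe set was high in 4 of the 6 mouse 5 libraries, at 9.31 (luminal LY6D+), 6.75 (luminal LY6D-), 10.36 (Sca1-high LY6D+) and 6.12 (Sca1-high LY6D-), and lay between 2.98 and 4.03 in the other 8 libraries, both basal libraries of mouse 5 included. The Nid1 probe set used above stayed between 4.75 and 5.80 in all 12. A probe set shared by Itgb4 and B230344G16Rik was 4.35 ± 0.40 in luminal, 4.58 ± 0.19 in Sca1-high and 4.63 ± 0.21 in basal cells (SD, n = 4), and one shared by Plec and Parp10 was 4.21 ± 0.34, 4.46 ± 0.38 and 4.42 ± 0.25. In the same order, a second probe set of Itgav was 3.34 ± 0.43, 2.95 ± 0.10 and 3.23 ± 0.07, and one of Dsg2 was 3.89 ± 0.33, 3.98 ± 0.26 and 4.06 ± 0.32.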
